A study of Mus musculus with 18 samples.

Results

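The galectin genes Lgals1, Lgals3, Lgals8 and Lgals9 and the galectin-3 binding protein gene Lgals3bp are described here in mouse brain at postnatal day 7. These 5 genes, of 18193 named on the arrays, are members of the galectin family and a partner, and all probe sets annotated to exactly 1 of them were taken. That gave 7 of 22626 probe sets in the cortex A chip table, 7 of 45037 in the rest table and 0 of 22511 in the cortex B chip table. Lgals1 was chosen by its measured knockout changes, a rise larger in cortex than in rest, so its values are a description and carry no test.

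The knockout animals are conditional Brca1 mutants. The submitters name a floxed allele flanking exons 5 to 13 and a null allele with a neo cassette in reverse at the start of exon 11, in wording that does not settle how the alleles are combined. Cre is driven by nestin, whose promoter is active in neural progenitors. The other group is wild type, and the labels do not say whether those animals carry Cre or a floxed allele. The design text speaks of 3 animals of each genotype for the cortex, and nothing says so for rest. Rest knockout arrays 1 and 2 list the Y-linked Eif2s3y and array 3 does not, so these do not all come from the same animal. How many animals the rest arrays stand for is not stated, and p-values there may measure technical spread in part. Each table holds 3 knockout and 3 wild-type arrays of postnatal day 7 tissue. The cortex arrays are of cortex, and the other table is titled rest with P7 brain as its source, without a statement of what rest contains.

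Galectins are lectins that bind beta-galactosides, mainly N-acetyllactosamine on the branches of cell-surface and matrix glycoproteins. They are made in the cytosol without a signal peptide, leave the cell by an unconventional route and cross-link glycoproteins into lattices. Galectin-1 is a prototype galectin that acts as a dimer of identical subunits, galectin-3 is a chimera with a long collagen-like tail that lets it oligomerise, and galectin-8 and galectin-9 join a pair of different binding domains by a linker. In brain, galectin-1 is made by astrocytes, meningeal and vascular cells and some neurons, and galectin-3 is a marker of activated microglia and macrophages.

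Signals are Affymetrix MAS5 values on a linear scale, scaled here within a table, and a blank cell means that no signal is listed. Between 42.7% and 45.5% of the probe sets were blank on the knockout arrays of the A chip, and between 42.0% and 46.0% on the wild-type arrays. In the rest table it was 48.6% to 49.7% on knockout and 48.4% to 50.8% on wild-type arrays. The cortex B chip had more blanks, 57.41% to 66.45% on knockout and 60.59% to 65.51% on wild-type arrays. Actin probe sets at the 3' end read above those at the 5' end. The ratio was 1.37 to 1.49 on knockout and 1.40 to 1.51 on wild-type A chip arrays, and 1.66 to 1.96 in knockout and 1.64 to 1.70 in wild-type rest arrays. On the B chip it was highest, at 1.94 to 2.40 on knockout and 1.86 to 2.16 on wild-type arrays. The targeted gene gave no lower signal: the listed Brca1 probe set read 52.3 ± 8.73 in knockout and 41.3 ± 6.65 in wild-type cortex (SD, n = 3 each; log2 change 0.25, limma adjusted p = 0.496), and which exon it reads is not given. The Y-linked Eif2s3y was listed on knockout arrays 1 and 2 of both tables and on 0 of the wild-type arrays, so genotype is partly joined with sex, and knockout array 3 is the only knockout without that signal. The cortical neuron genes Neurod6, Neurod2, Tbr1 and Bcl11b were listed on the cortex arrays, and all 4 were also listed on rest arrays, Neurod2 and Bcl11b on all 6, while the forebrain gene Emx1 was blank there.

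Lgals1 encodes galectin-1. It lies on chromosome 15 (GRCm38.p6 chr15:78926725-78930465) and has 2 probe sets. In cortex, 1419573_a_at read 753, 744 and 742 on the knockout arrays, against 235, 247 and 296 on the wild-type arrays. The other probe set, 1455439_a_at, read 781, 767 and 729 on the knockout arrays and 247, 243 and 294 on the wild-type arrays. Every knockout array lay far above every wild-type array in both probe sets. Of all probe sets tested in cortex, 11.6% had every knockout array above every wild-type array. The means were 746 ± 5.86 in knockout and 259 ± 32.0 in wild type for the first probe set, and 759 ± 27.1 and 261 ± 27.9 in knockout and wild type for the second (SD, n = 3 each).

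These values are 2.88-fold and 2.90-fold higher in knockout cortex as ratios of means. On the log2(signal + 16) scale the change was 1.48 (SE 0.0978, 95% interval 1.26 to 1.69) and 1.49 (SE 0.0947, 95% interval 1.28 to 1.70). Those changes rank 19 and 18 from the top among 12065 probe sets tested on the A chip. The probe sets also tracked each other, with a ratio of the second to the first between 0.982 and 1.05 over the 6 cortex arrays. In bulk tissue, more cells of a type and more transcript per cell cannot be told apart.

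Outside the cortex Lgals1 was higher in knockouts too, by less. Probe set 1419573_a_at in rest read 1149, 949 and 1031 in knockouts, against 692, 560.2 and 596 in wild types. The second probe set read 1067, 902 and 1006 in knockouts and 656, 572 and 669 in wild types. Every knockout array lay above every wild-type array in both probe sets, as for 8.42% of the probe sets tested there, but the gap was narrower than in cortex. The ratios of means were 1.69 and 1.57, and the log2 changes 0.75 (SE 0.102, 95% interval 0.52 to 0.98) and 0.64 (SE 0.0935, 95% interval 0.43 to 0.85), which rank 59 and 103 among 21407 probe sets tested.

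The cortex change exceeded the rest change by 0.73 (SE 0.144, 95% interval 0.42 to 1.04) for 1419573_a_at and by 0.85 (SE 0.132, 95% interval 0.57 to 1.13) for 1455439_a_at on the log2 scale. This difference is what Lgals1 was picked for. The tables come from different array types and were scaled apart, so the higher signals in rest are not a comparison of levels between the tissues.

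**Figure D1:**
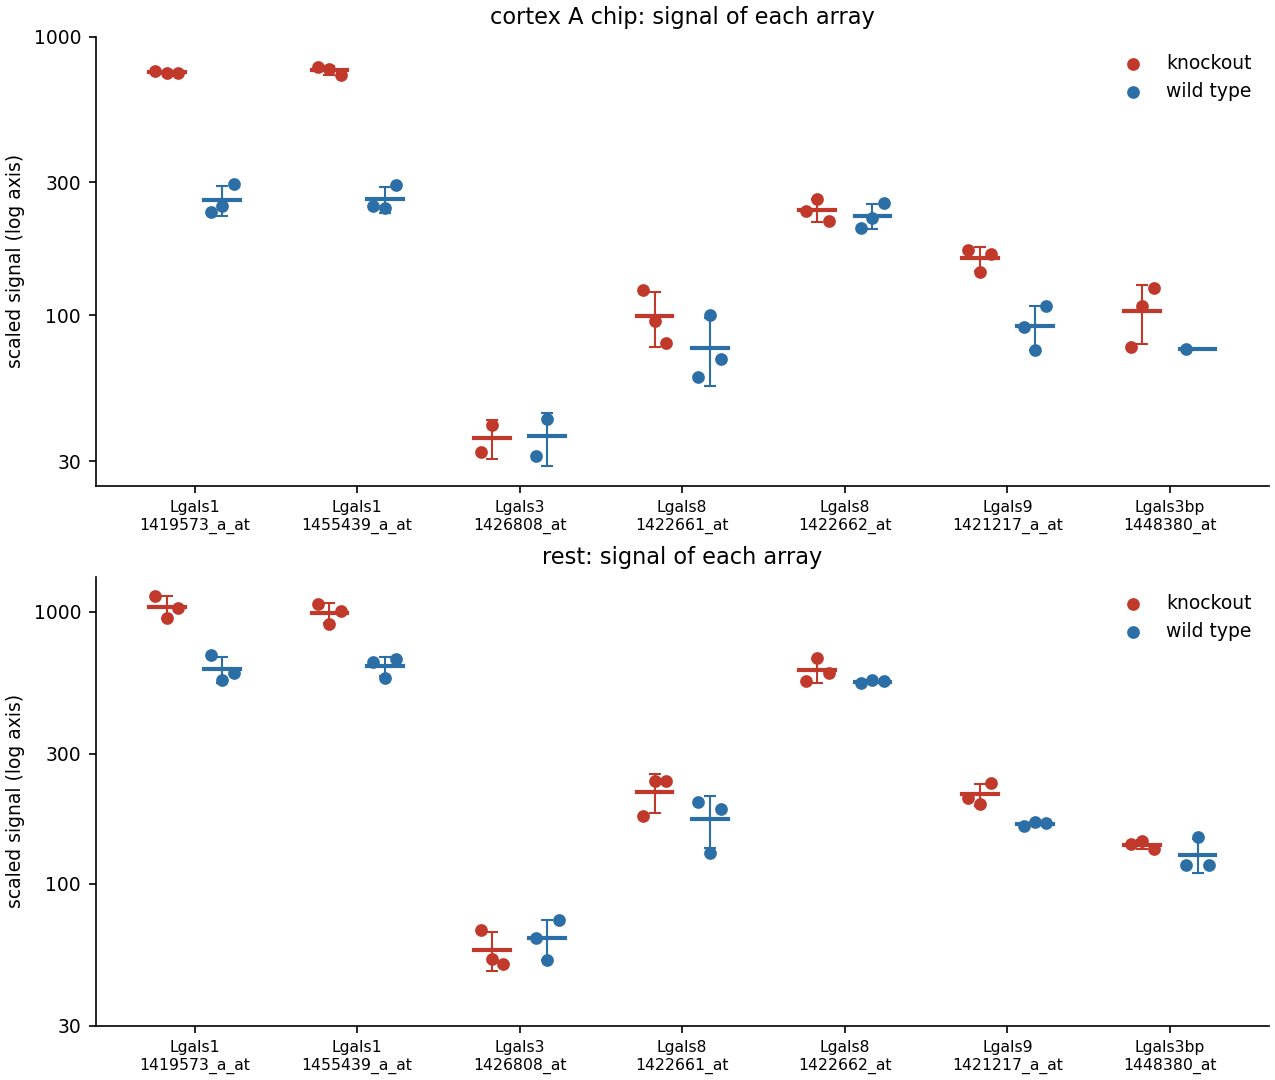
Scaled signal of each array (log axis) for the 7 galectin probe sets, with cortex A chip above and rest below; red points are knockout and blue points wild-type arrays, bars are means and whiskers 1 SD (n = 3, fewer where cells were blank). Knockout and wild-type points are apart for both Lgals1 probe sets and for Lgals9 in both tables, while Lgals3 and both Lgals8 probe sets overlap. Knockouts lay wholly above wild types for 11.6% of tested probe sets in cortex and 8.42% in rest.

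Lgals9, which encodes galectin-9, was the galectin that passed the test in knockout cortex, where it was higher. Galectin-9 is a tandem-repeat galectin that is best known as a ligand of the receptor Tim-3, and interferon induces it in many cells. Its probe set 1421217_a_at read 172, 143 and 166 in knockout cortex, against 90.8, 75.4 and 108 in wild-type cortex. The lowest knockout array was above the highest wild-type array, as was so for 11.6% of the probe sets tested there. The means were 160.2 ± 15.5 in knockout and 91.4 ± 16.4 in wild type (SD, n = 3 each), 1.75-fold as a ratio of means, with a log2 change of 0.72 (SE 0.145, 95% interval 0.40 to 1.04, limma adjusted p = 0.0227). On the A chip 3.02% of the 12065 probe sets tested were called, 2.3% as higher in knockouts. The called share was 1.61% without knockout array 2, 1.91% without wild-type array 1 and 0.689% with the Y-linked pattern in the fit.

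That call sits near the threshold and is not firm. It was lost in 7 of 16 other settings, among them the fits that leave out knockout array 1 (adjusted p = 0.0813), knockout array 2 (0.0502), knockout array 3 (0.0851), wild-type array 1 (0.0731) or wild-type array 2 (0.0696), while the log2 change stayed between 0.53 and 0.83 in all settings. When the Y-linked pattern entered the fit, the change was 0.78 (limma adjusted p = 0.204).

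In the rest table Lgals9 read 207, 197 and 235 in knockouts and 163, 168 and 166 in wild types. The groups did not overlap, as was so for 8.42% of the tested probe sets with the knockout higher in that table. The log2 change was 0.33 (SE 0.120, 95% interval 0.06 to 0.60), with an unadjusted p of 0.0210 and a limma adjusted p of 0.366, so it did not pass. The cortex change minus the rest change was 0.39 (SE 0.182, 95% interval 0.00 to 0.78, unadjusted p = 0.0490, limma adjusted p = 0.472), and the sizes of the 2 changes were not shown to differ.

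The promoter of Lgals9 is shown because it was the member that passed the test. Lgals9 lies on the minus strand of chromosome 11 (GRCm38.p6 chr11:78962979-78984924). The 250 bases before its annotated start, at chr11:78984925-78985174 of GRCm38.p6 on the minus strand, are given 5′ to 3′ from RefSeq, with capitals marking the interferon response element core (GAAA, any 2 bases, GAAA), here read on the opposite strand.
Lgals9 promoter: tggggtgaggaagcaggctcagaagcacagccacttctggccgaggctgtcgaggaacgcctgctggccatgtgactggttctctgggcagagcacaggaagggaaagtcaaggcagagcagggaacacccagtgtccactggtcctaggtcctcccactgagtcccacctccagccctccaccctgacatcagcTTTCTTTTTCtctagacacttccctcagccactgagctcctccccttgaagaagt
This match begins 55 bases before the start, at chr11:78984970-78984979. A second match, TTTCTGTTTC, begins at base 16 after the start, at chr11:78984900-78984909. The motif was searched on both strands of windows of 250 bases before to 50 after each start, and the Lgals9 window held 2 matches that do not overlap. Of 32851 such windows, 3.44% held at least 1 match and 0.225% held 2 or more. The windows of Lgals3, Lgals8 and Lgals3bp held 0 matches, which says only that these letters are not there. No window was available for Lgals1, so it was not searched. The motif was picked after Lgals9 was seen. A match is a run of letters and no evidence of binding.

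Other interferon-induced genes were mostly not listed. Of 12 on the list, 9 were on the A chip and 5 of them, Ifit1, Ifit3, Irf7, Bst2 and Oas1a, were blank on all 6 cortex arrays. Ifitm3 and B2m could be tested on that chip and rose in knockout cortex, where 2.69% of all genes rose and 0.66% fell. Ifitm3, a membrane protein that restricts virus entry, averaged 368 ± 13.8 in knockout and 190 ± 3.63 in wild-type cortex (SD, n = 3 each; log2 change 0.90, limma adjusted p = 0.000496). B2m, the light chain of MHC class I, averaged 838 ± 89.5 in knockout and 513 ± 94.2 in wild-type cortex (n = 3 each; log2 change 0.70, limma adjusted p = 0.0126). Ifi27, a mitochondrial interferon-induced protein, was tested on the cortex B chip, at 744 ± 68.4 in knockout and 443 ± 123 in wild-type cortex (SD, n = 3 each), and did not pass (log2 change 0.76, limma adjusted p = 0.153). In the rest table the same 5 genes were blank on all arrays and 0 of 4 tested genes passed by limma. Of these 4, 2 had an unadjusted p under 0.05, as had 10.2% of all genes. Of all genes in rest, 0.18% rose and 0.18% fell.

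Lgals3bp is no galectin but a secreted scavenger-receptor-like glycoprotein that binds galectin-3, integrins and matrix proteins, and it too is known as interferon-induced (GRCm38.p6 chr11:118392747-118401959). In cortex its probe set 1448380_at was listed on all 3 knockout arrays, at 77.1, 108 and 126, and on 1 of 3 wild-type arrays, at 76.0. The lowest knockout value nearly equals the single wild-type value, and wild-type arrays 1 and 3 were blank. No fold change was fitted, since a probe set needed 2 listed arrays of each genotype. Of all 22626 probe sets on the A chip, 0.95% were listed on all knockout and at most 1 wild-type array, and 0.796% showed the converse. In the rest table Lgals3bp was listed on all arrays, at 140, 144 and 134 in knockouts, against 117, 149 and 117 in wild types. Those groups overlap, and the log2 change was 0.11 (95% interval -0.20 to 0.43, limma adjusted p = 0.838).

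Lgals3, the galectin of activated microglia and macrophages (GRCm38.p6 chr14:47373860-47386167), was dim. Its probe set 1426808_at was blank on knockout array 1 and wild-type array 1 in cortex, and read 32.3 and 40.4 on the other knockout arrays, against 31.2 and 42.4 on the other wild-type arrays. In rest it read 67.4, 52.6 and 50.6 in knockouts and 63.0, 52.2 and 73.3 in wild types. The groups overlapped in both tables. The log2 change was -0.01 in cortex (95% interval -0.48 to 0.46, limma adjusted p = 0.989, n = 2 each) and -0.11 in rest (95% interval -0.50 to 0.27, limma adjusted p = 0.875). As ratios on that scale the intervals run from 0.716 to 1.38 in cortex and from 0.709 to 1.21 in rest.

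Lgals8 encodes galectin-8, a tandem-repeat galectin that binds integrins and marks damaged endosomes by the glycans exposed in them (GRCm38.p6 chr13:12439402-12464977). It has 2 probe sets. In cortex 1422661_at read 123, 95.5 and 79.6 in knockouts, against 59.8, 100.3 and 69.9 in wild types. In cortex 1422662_at read 237, 262 and 218 in knockouts and 205, 224 and 253 in wild types. Groups overlapped for both, and their ratio varied from 1.92 to 3.62 over the cortex arrays, so the probe sets do not follow each other as those of Lgals1 do.

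The cortex log2 changes of Lgals8 were 0.32 (95% interval -0.10 to 0.75, limma adjusted p = 0.462) and 0.07 (95% interval -0.19 to 0.32, limma adjusted p = 0.836). In rest, probe set 1422661_at read 177, 238 and 239 in knockouts and 199, 129.9 and 188 in wild types, and 1422662_at read 557, 678 and 595 in knockouts and 547, 560 and 556 in wild types. The changes in rest were 0.32 (95% interval -0.08 to 0.72, limma adjusted p = 0.590) and 0.13 (95% interval -0.08 to 0.34, limma adjusted p = 0.684). Lgals8 therefore did not pass in either table.

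**Figure D2:**
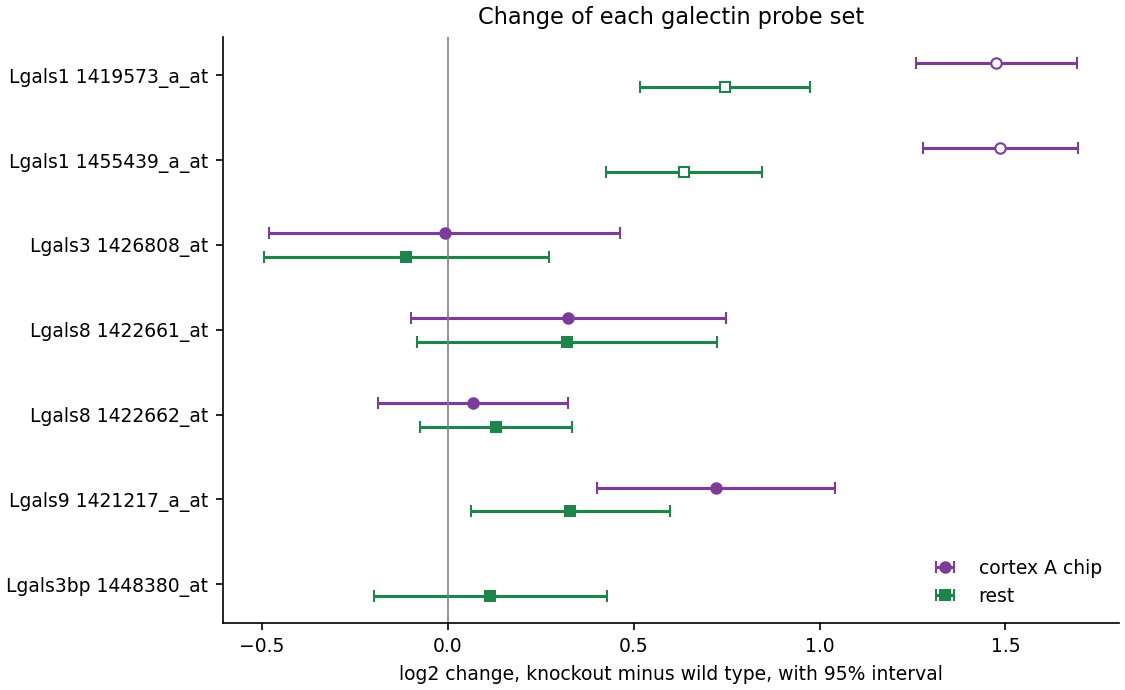
Log2 change, knockout minus wild type, with 95% interval from the limma fit, for each galectin probe set in cortex (purple circles) and rest (green squares); open symbols mark Lgals1, picked for its change. Both Lgals1 probe sets lie at 1.48 to 1.49 in cortex and at 0.64 to 0.75 in rest, Lgals9 lies at 0.72 and 0.33, and the intervals of Lgals3, Lgals8 and Lgals3bp (fitted in rest only) include 0.

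Leaving Lgals1 aside, 1 of the 4 member probe sets tested in cortex passed, Lgals9, beside the 3.02% called among all probe sets there. In rest 0 of 5 passed by limma, where 0.313% of 21407 did. Lgals9 alone had an unadjusted p under 0.05 there, as had 10.5% of all probe sets. The called share of rest was 0.131% without knockout array 1, 0.0633% without knockout array 2, 0.194% without wild-type array 1 and 0.148% without wild-type array 2 of rest. It was 0.0475% with the Y-linked pattern in the fit, 0.0467% with blanks at the lowest listed signal and 0.0514% with eBayes without a trend. For the difference between cortex and rest 0 of 4 passed by limma, where 0.0502% of 11959 probe sets did. Again Lgals9 had an unadjusted p under 0.05, a level that 10.5% of all probe sets reached. In that joint fit 28 probe sets were called without rest knockout array 3, in place of 6. The count was 3 without cortex knockout array 1 or 3, rest knockout array 1 or rest wild-type array 1. With the Y-linked pattern in the joint fit it was 0. The median log2 change of the tested member probe sets was 0.20 in cortex and 0.13 in rest, and that of all tested probe sets was -0.01 and 0.00.

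The other genes of the galectin fold showed no called change. Lgals2, Lgals7 and Lgals12, galectins of gut, skin and fat, were blank on all cortex arrays, as were Lgals2, Lgals7 and the lens gene Grifin on all rest arrays. Lgalsl, a galectin-related gene without known sugar binding, had the probe set 1424318_at at 612, 578 and 544 in knockout and 556, 628 and 604 in wild-type cortex, with limma giving a change of -0.04 on the log2 scale (adjusted p = 0.862). Lgals4, an intestinal galectin, was near the lower end of the listed signals in cortex, at 24.6 to 42.4 in knockouts and 29.6 to 39.6 in the 2 listed wild types (log2 change -0.05, limma adjusted p = 0.929).

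Galectins act on the glycoproteins they bind, and 16 of 23 listed partners could be tested on the A chip. In knockout cortex 2 rose and 0 fell, where 2.69% of all genes tested with 1 probe set each rose and 0.66% fell, and 9 had an unadjusted limma p under 0.05, a level that 16.5% of all genes reached. Nid1, a basement membrane linker of laminin and type IV collagen, averaged 514 ± 89.3 in knockout and 228 ± 57.5 in wild-type cortex (n = 3 each; limma log2 change 1.13 with SE 0.170, adjusted p = 0.00429). Lamp2, a lysosome membrane glycoprotein, averaged 637 ± 62.5 in knockout and 402 ± 19.8 in wild-type cortex (n = 3 each; limma log2 change 0.64 with SE 0.0940, adjusted p = 0.00378). The list's median log2 change was 0.21, against -0.01 for all genes tested.

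Its other members did not pass. For the galectin-8 ligand Pdpn the log2 difference was 0.58 (limma adjusted p = 0.0610), and for P4hb, a disulfide isomerase bound by galectin-9, it was 0.26 (limma adjusted p = 0.0852). The receptors Havcr2 (Tim-3), Trem2, Tlr4, Spn and Itga5 were blank on all cortex A chip arrays. On the cortex B chip Spn was listed on 2 knockout and 3 wild-type arrays and did not pass (log2 change 0.35, limma adjusted p = 0.876). In rest, where 0.18% of genes rose and 0.18% fell, 0 of 18 tested partners passed by limma. Of these partners 0 had an unadjusted p under 0.05, a level that 10.2% of all genes in rest reached. The partners' median log2 change was 0.03. Nid1 there had 0.31 (limma adjusted p = 0.490) and Lamp2 0.12 (limma adjusted p = 0.746).

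Enzymes that build and cap the N-glycans read by galectins were not called. Of all genes tested on the A chip, 2.69% rose and 0.66% fell. Of 15 enzymes tested there 0 passed by limma, and 5 had an unadjusted p under 0.05, as had 16.5% of all genes. Their median log2 change was -0.05. B4galt1, a galactosyltransferase that makes N-acetyllactosamine, had 0.59 (limma adjusted p = 0.0646). St6gal1, whose alpha-2,6-linked sialic acid blocks galectin-1 binding, had 0.40 (limma adjusted p = 0.117). Man2a1, a Golgi mannosidase that trims N-glycans before branching, had 0.53 (limma adjusted p = 0.128). The galactosyltransferase B4galt2 had -0.34 (limma adjusted p = 0.130). In rest 0 of 20 passed by limma, with 0 at an unadjusted p under 0.05. Of all genes in rest, 0.18% rose, 0.18% fell and 10.2% had an unadjusted p under 0.05.

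On the cortex B chip, which holds no galectin of the members, 0 of 5 tested galectin partners passed by limma, against 0.453% of all genes there, with 1 at an unadjusted p under 0.05, as had 8.71% of all genes. That was Cd44, a hyaluronan receptor also bound by galectin-9, at 375 ± 34.5 in knockout and 274 ± 63.8 in wild-type cortex (SD, n = 3 each; log2 change 0.45, limma adjusted p = 0.636). On the A chip, Cd44 read 84.3, 74.3 and 107 in knockout and 66.5, 78.4 and 83.6 in wild-type cortex, where limma gave 0.18 on the log2 scale (adjusted p = 0.653). Of 8 glycan enzymes tested on the B chip 0 passed by limma, with 2 at an unadjusted p under 0.05, beside the 8.71% of all genes there.

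The genes whose pattern was most like that of Lgals1 were found from 12 arrays, 6 of cortex and 6 of rest. For each probe set listed on all of them, the log2 value of an array was taken minus the wild-type mean of its table, and likeness was the root mean square difference from the Lgals1 probe set 1455439_a_at over 10064 other probe sets. The second Lgals1 probe set was at 0.0793, and the median of all was 0.829. The nearest genes were Col18a1 (0.167), a basement membrane collagen, Svil (0.172), an actin-binding membrane protein, and Serpinf1 (0.175), a secreted serpin also called PEDF. Then came Apod (0.187), a lipocalin, Bmp7 (0.190), a bone morphogenetic protein, and Col6a3 (0.202), a type VI collagen chain. Because Lgals1 was picked for its changes, genes near it share large changes by construction.

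Col18a1 averaged 206 ± 7.35 in knockout and 71.3 ± 20.2 in wild-type cortex, and 327 ± 37.7 in knockout and 199 ± 56.8 in wild-type rest (SD, n = 3 each). Serpinf1 averaged 589 ± 27.8 in knockout and 229.7 ± 24.7 in wild-type cortex, and 552 ± 101.8 in knockout and 335 ± 52.3 in wild-type rest. Apod averaged 773 ± 28.2 in knockout and 267 ± 63.1 in wild-type cortex, and its log2 change in rest, 0.44, was the smallest of the 6. Col6a3 had the largest of the 6 in both tables, at 1.61 in cortex and 0.97 in rest.

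**Figure D3:**
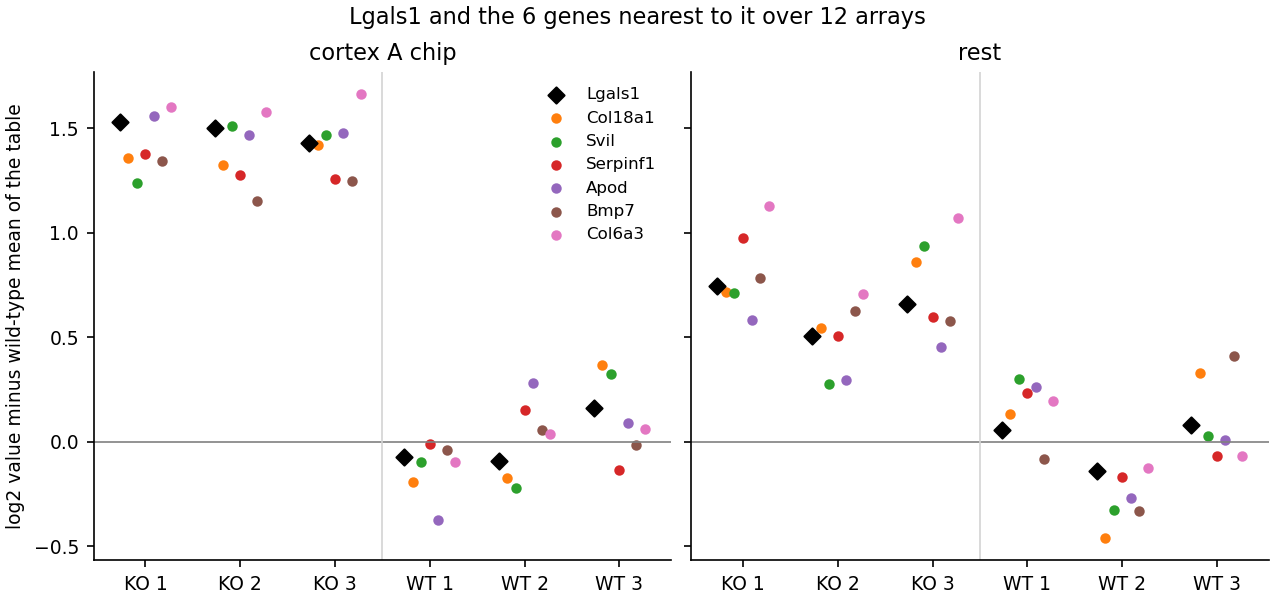
Log2 value of each array minus the wild-type mean of its table, for Lgals1 (black diamonds, probe set 1455439_a_at) and the 6 genes nearest to it over the 12 arrays (coloured points), with cortex on the left and rest on the right. All 7 genes lie between 1.15 and 1.66 on the 3 knockout cortex arrays, and Lgals1 lies at 0.51 to 0.74 on the knockout rest arrays.

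In cortex, markers of several cell types that can make galectins were higher in knockouts, as Lgals1 and Lgals9 were. Meningeal fibroblast markers rose in 10 of 11 tested in cortex and fell in 0 (median log2 change 1.34), led by Itih5 (2.37), Col3a1 (2.01), Col1a1 (1.82) and Slc6a13 (1.79, with 2 listed wild types), all called by limma. Of all genes tested there, 2.69% rose and 0.66% fell. The summed signal of the 9 markers listed on all arrays was 12421 to 15168 in knockout and 6227 to 6839 in wild-type cortex. In rest 6 of 13 rose and 0 fell (median 0.96), where 0.18% of all genes rose and 0.18% fell. The sums there were 16870.1 to 20429 in knockouts and 9613 to 16348 in wild types. None of the 14 genes of that list was blank throughout. This and the other marker lists were written with earlier results of these data known. Their counts beside the shares of all genes are therefore a description and no independent test.

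Microglia and macrophage markers rose in 8 of 15 tested in cortex and fell in 0 (median 0.58), led by Mrc1 (1.20), Ctss (1.01, with 2 listed wild types), C1qa (0.85) and C1qb (0.72). Of all genes tested in cortex, 2.69% rose and 0.66% fell. The sum of these markers over 11 genes was 4513 to 5108 in knockout and 2739 to 3128 in wild-type cortex. Trem2 was blank throughout. Of the markers of resident microglia, named after their values were seen, P2ry12 had a log2 change of 0.00, Tmem119 of 0.41 and Cx3cr1 of 0.50 in cortex, with limma adjusted p-values of 0.996, 0.127 and 0.285 (2 listed wild types for the last 2 genes). In rest, where 0.18% of genes rose and 0.18% fell, 0 of 14 passed by limma. Of these 14, 7 had an unadjusted p under 0.05, as had 10.2% of all genes. The sums there were 5397 to 6445 in knockouts and 4504 to 4994 in wild types.

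Endothelial markers rose in 4 of 12 in cortex (Cd34, Cdh5, Tie1 and Cldn5) and astrocyte markers in 4 of 12 (Gjb6, Vim, Gja1 and Aqp4). The astrocyte list's median log2 change in cortex was 0.18. Its members not called by limma included Slc1a3 (-0.13), Sox9 (-0.10), Fgfr3 (0.04), Aldh1l1 (0.05) and S100b (0.12). Mural markers rose in 2 of 6 (Pdgfrb and Vtn), and 0 genes of these lists were called as lower. Of all genes tested there, 2.69% rose and 0.66% fell. The log2 change was above 0 for 12 of 12 endothelial, 10 of 12 astrocyte and 5 of 6 mural genes. The mural gene Cspg4 had -0.35 (limma adjusted p = 0.226). The summed signals of these 3 lists did not overlap between genotypes in cortex. Of single probe sets tested there, 11.6% had every knockout array above every wild-type array. Bright genes weigh most in a sum, and the mural gene Vtn averaged 1214 in knockout and 602 in wild type. The sums were 2493 to 2759 in knockout and 1737 to 1963 in wild type for endothelium, 9726 to 11632 in knockout and 7713 to 8382 in wild type for astrocytes, and 2503 to 2656 in knockout and 1621 to 1698 in wild type for mural cells. Pecam1 and the mural genes Acta2, Tagln, Kcnj8 and Anpep were blank on all cortex A chip arrays. In rest the sums of these 3 lists overlapped between genotypes. Of all genes in rest 0.18% rose and 0.18% fell, and by limma 0 of 13 endothelial, 0 of 12 astrocyte and 0 of 6 mural genes passed. Of these genes 1, 2 and 2 had an unadjusted p under 0.05, as had 10.2% of all genes. Both astrocyte genes among these, Gfap (-0.48) and Sox9 (-0.34), were lower in knockouts on the log2 scale, and the list's median was -0.05. Of 9 neuron markers in cortex only Gad1 fell (-0.58, limma adjusted p = 0.0207). The part of any of these cell types in the galectin values was not tested.

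**Figure D4:**
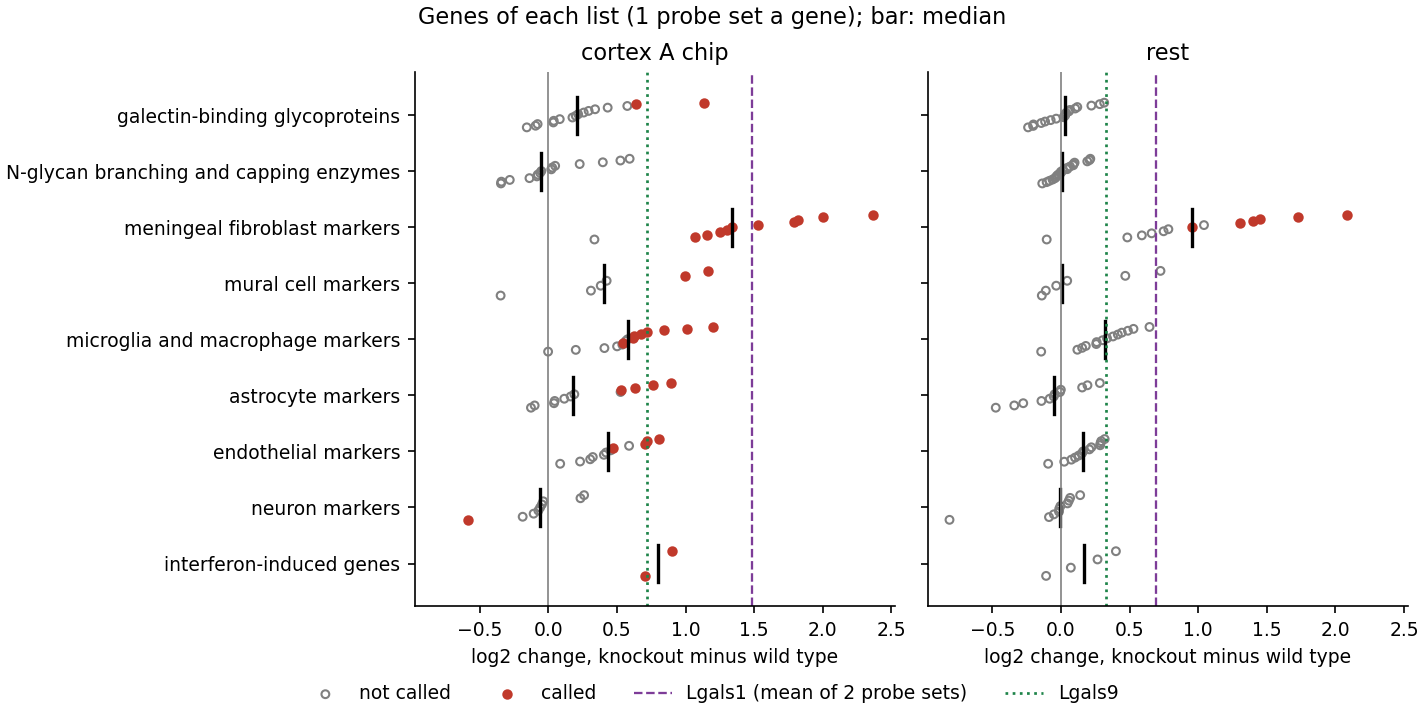
Log2 change, knockout minus wild type, of each tested gene (1 probe set a gene) by list, in cortex on the left and rest on the right; red points are called at a limma adjusted p under 0.05, open points are not, black bars are medians, and dashed and dotted lines mark Lgals1 and Lgals9. In cortex the Lgals1 line falls among the meningeal fibroblast markers (median 1.34). The Lgals9 line lies below that median and that of the 2 interferon-induced genes (0.80), and above those of the other lists.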

How the data were processed

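RNA was extracted with TRIZOL and labelled by the standard Affymetrix protocol, per the labels. The authors deposited 1 intensity for each probe set and array, computed with MAS5, per the submitters' processing notes; version, settings and the meaning of blank cells are not given in the sources used here. Affymetrix controls were removed. Arrays of a table were brought to the same 2% trimmed mean of the probe sets listed on all 6 (factors 0.948 to 1.06), and log2(signal + 16) was taken. Probe sets listed on at least 2 arrays of each genotype were tested, and a filter at the 40th percentile of the mean level removed none of them. Symbols came from the array annotation, updated by gene identifier from RefSeq (20380 of the A chip's probe sets have 1 gene, 691 several and 1555 none).

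Knockout and wild type were compared table by table (limma 3.58.1 under R 4.3.3, with lmFit and trended eBayes). Benjamini-Hochberg adjustment ran over all probe sets tested, a call being an adjusted p under 0.05. The difference between cortex and rest was the interaction in a joint fit. The planned B chip results have no value, since no member is on that chip. The fits were tested on simulated data. Every member probe set is named, up to 4 genes of a list (the called ones with the largest change, else those with the lowest p), and the 6 genes nearest to Lgals1. Genes named for a blank or for what is known of them fall outside that rule, and the motif was picked after Lgals9 was seen. The members and lists were chosen with earlier results of these data known. The number of arrays limits the precision.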

Additional observations from a re-analysis of the deposited data

How the results depend on the processing

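The alternatives were no further scaling, quantile normalization, offsets of 1 and 64, only probe sets listed on all arrays, blanks at the lowest listed signal, a level filter at the 60th percentile, eBayes without a trend, a replicate block, a sex-marker term, and leaving out each array. The number of member probe sets called in cortex besides Lgals1, 1 as reported, was 0 with blanks at the lowest listed signal and with the sex-marker term, and ranged from 0 to 1 when an array was left out. The member lost was Lgals9, whose change kept its direction (limma adjusted p 0.0163 to 0.204). In rest and for the difference between tables the count was 0 in every alternative. Lgals1 had log2 changes of 1.33 and 1.34 in cortex with an offset of 64, and 1.33 to 1.57 over all settings; in rest the range was 0.57 to 0.83. The 40th percentile filter removed no tested probe set, so the fit without it is the same and is not counted. Deviations of same-numbered knockout and wild-type arrays had correlations between -0.00876 and 0.0189 for the A chip. For the B chip these lay between 0.0721 and 0.159, and for rest between 0.0227 and 0.251. Each table held a correlation below 0.1, so the numbers were not taken to pair samples. Cortex and rest arrays of a number share the Y-linked pattern, and the labels do not say whether they share animals; with the number as a random block in the joint fit, Lgals9 had the same difference, 0.39 (limma adjusted p = 0.429). With the replicate block, Lgals9 in cortex had the same change, 0.72 (limma adjusted p = 0.0266), and the counts of called members were 1 in cortex and 0 in rest; over all probe sets of rest the block gave 142 calls in place of 67. Dim probe sets such as Lgals3 and Lgals3bp are limited by blanks.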

Other observations

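Lgals4 was listed on all 6 rest arrays, at 69.2, 95.1 and 74.9 in knockouts and 61.4, 54.8 and 63.5 in wild types. The groups did not overlap, as was so for 8.42% of the tested probe sets with the knockout higher, and the log2 change of 0.33 did not pass (limma adjusted p = 0.526).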
